A study of Drosophila melanogaster with 6 samples.

Results

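The 10 TRP (transient receptor potential) channel genes described here are *trp*, *trpl*, *Trpgamma*, *Trpm*, *Trpml*, *TrpA1*, *pain*, *pyx*, *nan* and *wtrw*. They were chosen by their FlyBase symbols, and all 10 were found among the 17558 genes of the count table. RNA-seq counts were made for 3 post-isolation and 3 pre-isolation samples. The post-isolation samples are nuclear RNA of affinity-purified, GFP-tagged photoreceptor nuclei, with adult retina as their labelled tissue, and the pre-isolation samples are total RNA of the head homogenate before that step. All samples came from male flies aged 10 days, pooled within each sample, that carried *UAS-GFP-Msp300KASH* at attP2 under *rh1-GAL4* with *ry[506]* in a *w* background, so that both groups of samples carry the same transgenes. The *rh1* promoter drives the tag in the outer photoreceptors, so the inner photoreceptors of the same eye are not meant to be tagged. By the study's account the driver is also active in the antenna, which holds the mechanosensory neurons of the hearing organ, so nuclei of those neurons may be among the tagged ones. No other genotype or age is part of the comparison.

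TRP channels are cation channels of animal cell membranes, and the family takes its name from the fly mutant whose photoreceptors give only a transient response to steady light. In the fly eye, light-activated rhodopsin acts through a G protein on the phospholipase C encoded by *norpA*, and the TRP and TRPL channels open in the rhabdomere, the stack of microvilli that holds the light-sensing machinery. Other members of the family serve in warmth, irritant, humidity and sound sensing, in the lysosome, and in ion homeostasis of non-neuronal tissues.

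Gene counts summed to 11693481 to 14522962 per library after isolation and to 9999540 to 11232033 before. Levels are given as CPM, the counts as parts of 1e+06 in a library after scaling with edgeR's TMM factors. A positive log2 fold change means a higher level after isolation. Of the 10 genes, 8 had more than 1 CPM in at least 3 samples and entered the test, while *nan* and *Trpml* did not. A gene was called post-enriched or post-reduced when edgeR's glmTreat, which tests against a fold change of 2, gave an FDR below 0.05 over the 10378 genes tested. Of the 8 tested TRP genes, 2 were post-enriched, *trp* and *trpl*, where 7.29% of all tested genes were. None was post-reduced by edgeR's glmTreat, where 4.89% of all tested genes were, and the number was also 0 at an unadjusted p below 0.05 and with DESeq2. By edgeR's quasi-likelihood F test against no change, which sets no minimum fold, *trp* and *trpl* were higher (24.4% of all tested genes were) and 2 further genes, *Trpm* and *wtrw*, were lower (26.1% of all tested genes were). The median log2 fold change of the 8 genes was -0.35, against -0.07 for all tested genes. The isolation changes both the cells and the cell compartment from which RNA is taken, and in such bulk samples fewer cells of a type and less RNA per cell cannot be told apart.

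*trp* (FBgn0003861), on 3R from 29914521 to 29920289 on the minus strand in BDGP6 coordinates, encodes the main light-activated channel of the rhabdomere, which carries most of the calcium entry. It had 306760, 252875 and 188388 counts in post-isolation replicates 1 to 3, against 38427, 40545 and 36811 in pre-isolation replicates 1 to 3. As CPM these were 26371, 23226 and 17190 after isolation, against 2944, 3217 and 3142 before. The groups did not overlap, all post-isolation values being the higher ones, as was the case for 28.0% of all tested genes. The log2 fold change was 2.84 (SE 0.19, FDR = 8.8e-07 from edgeR's glmTreat), a 7.18-fold rise with a 95% interval from 5.41 to 9.53. In each post-isolation sample *trp* ranked 2 by count among all genes of the table, against ranks 18, 16 and 16 in pre-isolation replicates 1 to 3.

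*trpl* (FBgn0005614), on 2R from 9753697 to 9765518 on the plus strand, encodes the second light-activated channel, which is less selective for calcium and moves out of the rhabdomere in prolonged light. It had 190094, 169493 and 118464 counts in post-isolation replicates 1 to 3, against 18613, 18611 and 15655 in pre-isolation replicates 1 to 3. The CPM values were 16342, 15567 and 10809 after isolation, against 1426, 1477 and 1336 before, so the groups did not overlap here either. The log2 fold change was 3.33 (SE 0.19, FDR = 1.4e-07 from edgeR's glmTreat), a 10.1-fold rise with a 95% interval from 7.64 to 13.3. Only 1.16% of the 10378 tested genes had a higher log2 fold change than *trpl*, and 1.92% had a higher one than *trp*. *trpl* ranked 7, 5 and 6 by count in the post-isolation samples, against 51, 48 and 56 in the pre-isolation samples.

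**Figure D1:**
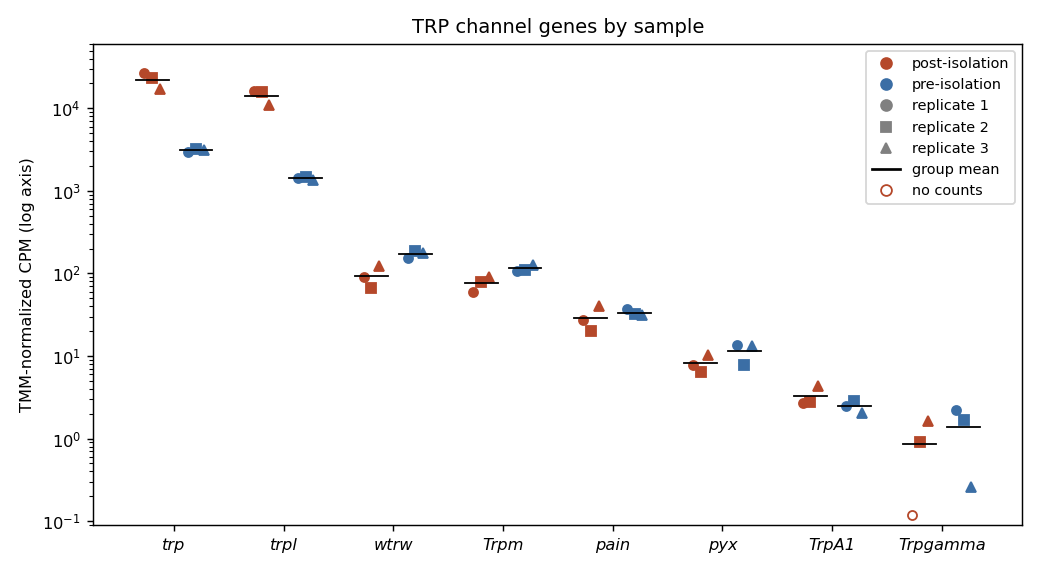
TMM-normalized CPM on a log axis for the 8 tested TRP genes in each of the 3 post-isolation (left of each pair) and 3 pre-isolation samples, with marker shapes for replicates and lines for group means. The post-isolation samples of *trp* and *trpl* lie above all their pre-isolation samples, those of *wtrw* and *Trpm* lie below, and the groups of the other 4 genes overlap. The open marker at the foot of *Trpgamma* stands for a sample with no counts and not for a measured level.

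Together the 10 genes took 3.44%, 3.25% and 2.65% of all gene counts in post-isolation replicates 1 to 3, against 0.545%, 0.586% and 0.566% in pre-isolation replicates 1 to 3. *trp* and *trpl* made up 99.4% ± 0.289 of the family's counts after isolation and 93.0% ± 0.307 before (SD, n = 3 each). The share of *trpl* in the family's counts was 38.8% ± 1.03 after isolation and 29.1% ± 1.39 before, and that of *trp* was 60.6% ± 0.949 after and 63.9% ± 1.12 before. The other 8 members had together 188, 176 and 267 CPM in the post-isolation samples, against 318, 341 and 353 CPM in the pre-isolation samples. The rise of the family's share of the library was thus carried by the light-activated pair.

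The ratio of *trpl* to *trp* counts within a library needs no scaling between libraries. It was 0.620, 0.670 and 0.629 in post-isolation replicates 1 to 3, against 0.484, 0.459 and 0.425 in pre-isolation replicates 1 to 3. Every post-isolation ratio lay above every pre-isolation ratio. The log2 ratio was higher after isolation by 0.49 ± 0.12 (SD over 3 numbered pairs), 1.40-fold, with pair values of 0.36, 0.55 and 0.56. Without regard to pairs, the two-sided exact permutation p was 0.1, the smallest that 3 samples against 3 allow. Per length of exon, the ratio was 0.660, 0.714 and 0.670 after isolation and 0.516, 0.489 and 0.453 before, so *trp* had the higher level per length in all samples.

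*ninaE* encodes the rhodopsin Rh1 of the outer photoreceptors, the cells in which *rh1-GAL4* acts. The ratio of *trp* to *ninaE* counts was 0.464, 0.447 and 0.356 in post-isolation replicates 1 to 3, against 0.0990, 0.109 and 0.115 in pre-isolation replicates 1 to 3. That of *trpl* to *ninaE* was 0.288, 0.300 and 0.224 after isolation, against 0.0480, 0.0501 and 0.0490 before. Both ratios were separated between the groups, with log2 differences of 1.96 ± 0.31 for *trp* and 2.45 ± 0.23 for *trpl* (SD over 3 numbered pairs, p = 0.1 in the two-sided exact permutation test, again the smallest possible). *ninaE* itself had a log2 fold change of 0.86 (SE 0.19), which did not pass the test against a fold change of 2 (FDR = 1.00). It was higher in edgeR's F test against no change (FDR = 0.0014), as were 24.4% of all tested genes.

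**Figure D2:**
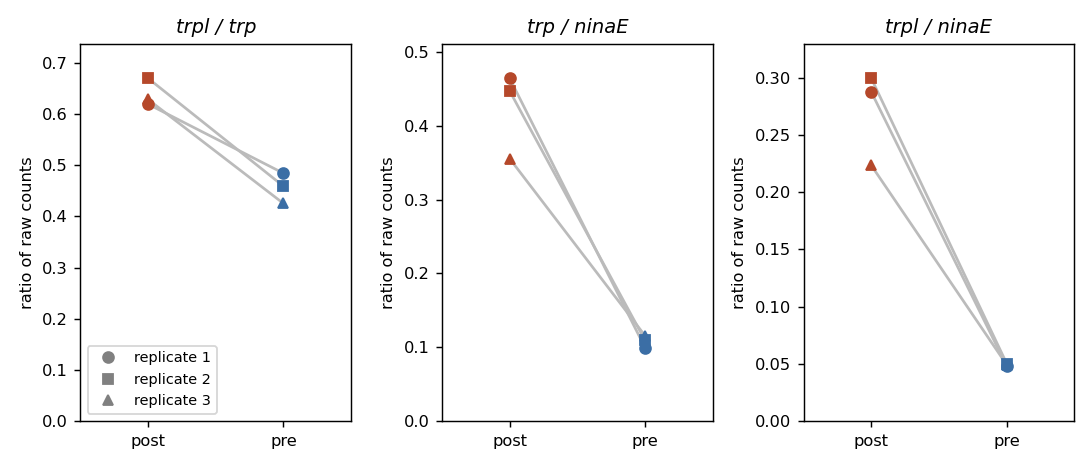
Ratios of raw counts within each library for *trpl* to *trp*, *trp* to *ninaE* and *trpl* to *ninaE*, with post-isolation samples on the left, pre-isolation samples on the right and grey lines joining the numbered pairs. All 3 pairs run downward from post to pre in each panel, and the *trpl* to *trp* ratio lies between 0.620 and 0.670 after isolation and between 0.425 and 0.484 before.

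*Trpgamma* (FBgn0032593), on 2L from 16663454 to 16676701, encodes the third channel of the same TRPC subfamily and is known for a role in fine motor control. It had 0, 10 and 18 counts in post-isolation replicates 1 to 3, against 29, 21 and 3 in pre-isolation replicates 1 to 3. The groups overlapped, and the highest and lowest counts of each group differed widely. The log2 fold change was -0.75 with a 95% interval from -2.59 to 1.09 (FDR = 1.00 from edgeR's glmTreat, and 0.498 against no change). Leaving out 1 library moved it from -1.61 (without post-isolation replicate 3) to -0.14 (without post-isolation replicate 1), and it was not called in any of these fits. At this depth neither a rise of 2-fold nor a fall of 2-fold could be told from no change, but the interval lies below the rises of *trp* and *trpl*.

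*Trpm* (FBgn0265194), on 2R from 15262808 to 15309368, encodes the fly's only TRPM channel, which serves in the homeostasis of divalent metal ions. It had 58.8, 79.4 and 89.5 CPM in post-isolation replicates 1 to 3, against 107, 111 and 128 CPM in pre-isolation replicates 1 to 3. Every post-isolation sample lay below every pre-isolation sample, which held for 30.1% of all tested genes. The log2 fold change was -0.60 (SE 0.15), with a 95% interval from -0.93 to -0.28. It was not called against a fold change of 2 (FDR = 1.00) and was lower in edgeR's F test against no change (FDR = 0.0043), where it stayed below an FDR of 0.05 when each sample was left out in turn. Its gene spans 46.6 kb, the longest of the 10.

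The TRPA subfamily has 4 members here. *wtrw* (water witch, FBgn0260005), on 3R from 7891331 to 7901147, encodes a channel needed to sense moist air. It had 91.5, 66.8 and 122 CPM in post-isolation replicates 1 to 3, against 156, 185 and 178 CPM in pre-isolation replicates 1 to 3. No sample of one group fell within the other, all post-isolation values being the lower ones, as was the case for 30.1% of all tested genes. The log2 fold change of *wtrw*, -0.89 (SE 0.17, 95% interval from -1.26 to -0.52), was the lowest of the 8 tested genes. It was not called against a fold change of 2 (FDR = 1.00) and was lower against no change in edgeR's F test (FDR = 0.0006). The interval reaches past a fall of 2-fold.

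*pain* (painless, FBgn0060296), on 2R from 24921505 to 24928275, encodes a channel of larval pain neurons that responds to noxious heat. It had 27.1, 20.0 and 39.8 CPM in post-isolation replicates 1 to 3, against 37.0, 32.0 and 31.7 CPM in pre-isolation replicates 1 to 3. The groups overlapped because post-isolation replicate 3 lay above all pre-isolation samples. The log2 fold change was -0.21 (SE 0.21, 95% interval from -0.67 to 0.24, FDR = 0.434 against no change). Without post-isolation replicate 3 it was -0.46 and lower in the F test against no change (FDR = 0.0366), so this single library decides that call.

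*pyx* (pyrexia, FBgn0035113), on 3L from 217932 to 223069, encodes a channel that protects flies from paralysis at high temperature. It was at 7.74, 6.34 and 10.4 CPM in post-isolation replicates 1 to 3, against 13.5, 7.70 and 13.2 in pre-isolation replicates 1 to 3, with overlapping groups. The log2 fold change was -0.49 (SE 0.30, 95% interval from -1.13 to 0.15), and it passed neither the test against 2-fold (FDR = 1.00) nor that against no change (FDR = 0.195). *TrpA1* (FBgn0035934), on 3L from 8894404 to 8905200, encodes a sensor of warmth and of irritant chemicals. It had 31, 30 and 48 counts in post-isolation replicates 1 to 3, against 32, 36 and 24 in pre-isolation replicates 1 to 3, and its log2 fold change was 0.40 with a 95% interval from -0.56 to 1.36 (FDR = 0.484 against no change). Its sign turned, to -0.042, with library size alone in place of TMM factors, a scaling that moved the median of all tested genes to -0.51.

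*nan* (nanchung, FBgn0036414), on 3L from 14186249 to 14189648, encodes a TRPV channel of the hearing organ. It had no counts in any post-isolation sample, against 0, 5 and 0 counts in pre-isolation replicates 1 to 3. Its partner in that organ, the TRPV gene *iav* (inactive), had 7, 6 and 30 counts after isolation, against 0, 24 and 18 before, with a log2 fold change of 0.19 and a wide 95% interval from -1.66 to 2.04. The mechanosensory channel gene *nompC*, the fly's TRPN member, had 22, 61 and 51 counts after isolation, against 20, 47 and 88 before. Its log2 fold change was -0.06, with a 95% interval from -1.19 to 1.08. *Pkd2*, a TRPP gene known for its role in sperm, had 0, 6 and 0 counts after isolation, against 11, 4 and 0 before, and was not tested. Neither *iav* nor *nompC* was called in either direction.

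*Trpml* (FBgn0262516), on 3L from 19714418 to 19718328, encodes a lysosomal cation channel related to human mucolipin. It is listed at 0 in all 6 samples, as are 19.0% of the genes in the table. A count of 0 allows up to 3 counts, or between 0.230 and 0.276 CPM depending on the library, for counting error only. In the annotation used here no other gene overlaps *Trpml*, and reads with several places in the genome are not part of the gene counts. Whether any of its reads were among these was not tested.

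**Figure D3:**
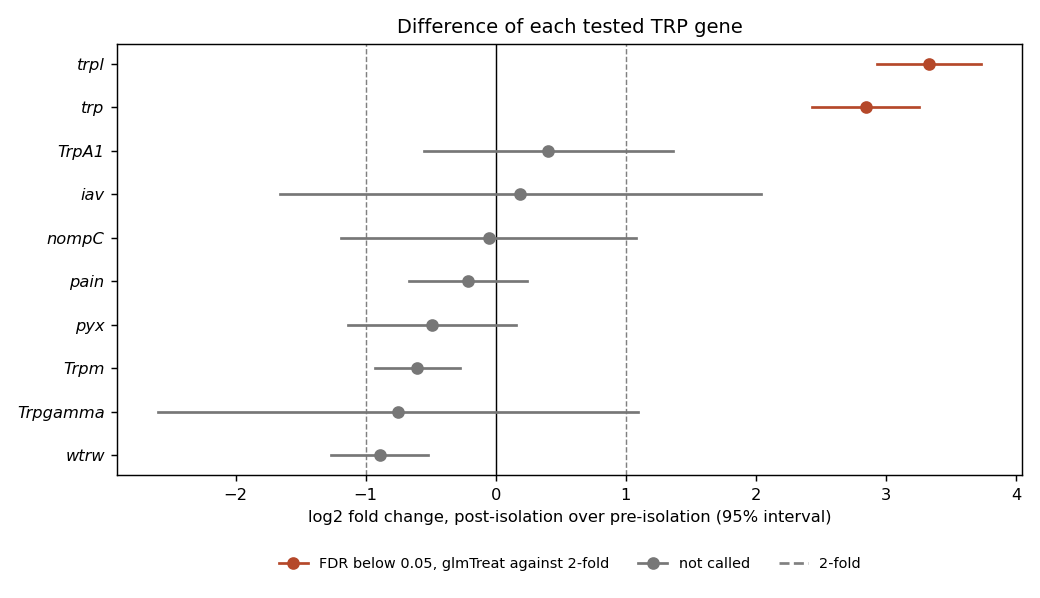
Log2 fold change of post-isolation over pre-isolation, with its 95% interval, for the 8 tested TRP genes and the tested TRP genes *iav* and *nompC*. *trp* at 2.84 and *trpl* at 3.33 lie past the dashed line of a 2-fold rise with their whole intervals, and the intervals of *Trpm* and *wtrw* lie below 0. That of *wtrw* crosses the line of a 2-fold fall and that of *Trpm* does not reach it.

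Levels of different genes were compared per kb of annotated exon. After isolation the order was *trp* at 5366 ± 1125 CPM per kb, *trpl* at 3658 ± 769, *wtrw* at 21.4 ± 6.28, *pain* at 9.52 ± 3.29 and *Trpm* at 7.82 ± 1.61 (SD, n = 3). It continued with *pyx* at 2.02 ± 0.510, *TrpA1* at 0.622 ± 0.184 and *Trpgamma* at 0.160 ± 0.155. The sample ranges of *trp* and *trpl* overlapped after isolation, as did those of *pain* and *Trpm*, while *wtrw* stood apart from its neighbours on both sides. Before isolation *trp* had 747 ± 34.0 CPM per kb, *trpl* 363 ± 18.2, *wtrw* 39.6 ± 3.54, *Trpm* 11.9 ± 1.12 and *pain* 11.03 ± 0.985. There the ranges of *trp* and *trpl* did not overlap, and those of *Trpm* and *pain*, which stand in the other order, did. The level of *trp* was 251 times that of *wtrw*, the highest of the other members, after isolation, and 18.9 times before.

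Of the 8 tested genes, all but *pyx* varied more between samples after isolation than before. The coefficient of variation over 3 samples was 21.0% for both *trp* and *trpl* after isolation, against 4.55% for *trp* and 5.02% for *trpl* before. Post-isolation replicate 3 had the lowest *trp* and *trpl* of its group and the highest *Trpm*, *wtrw*, *pain*, *pyx* and *TrpA1*. The markers of cell types also set this library apart. The photoreceptor markers *chp*, *eys* and *gl* were all 3 post-enriched, where 7.29% of all tested genes were. Their sums were 24204, 19412 and 13460 CPM in post-isolation replicates 1 to 3, against 2845 to 3135 CPM in the pre-isolation samples. The markers of brain neurons with other transmitters (*ChAT*, *VGlut*, *Gad1*, *ple* and *Vmat*) summed to 722, 701 and 1174 CPM in post-isolation replicates 1 to 3, against 1392 to 1480 CPM in the pre-isolation samples. All 5 had log2 fold changes below 0, and 1, *Gad1*, was post-reduced, where 4.89% of all tested genes were. By the F test against no change 4 of the 5 were lower, where 26.1% of all tested genes were. The 5 glial markers (*repo*, *moody*, *alrm*, *Eaat1* and *Gat*) summed to 325, 297 and 451 CPM, against 570 to 609 CPM before isolation. All had log2 fold changes below 0. None was called post-reduced, where 4.89% of all tested genes were, while 4 were lower in the F test against no change, where 26.1% were. The part of these cells in the values of the TRP genes was not tested. Without post-isolation replicate 3 the log2 fold changes were 3.04 for *trp*, 3.54 for *trpl*, -0.70 for *Trpm* and -1.08 for *wtrw*, with the same calls.

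**Figure D4:**
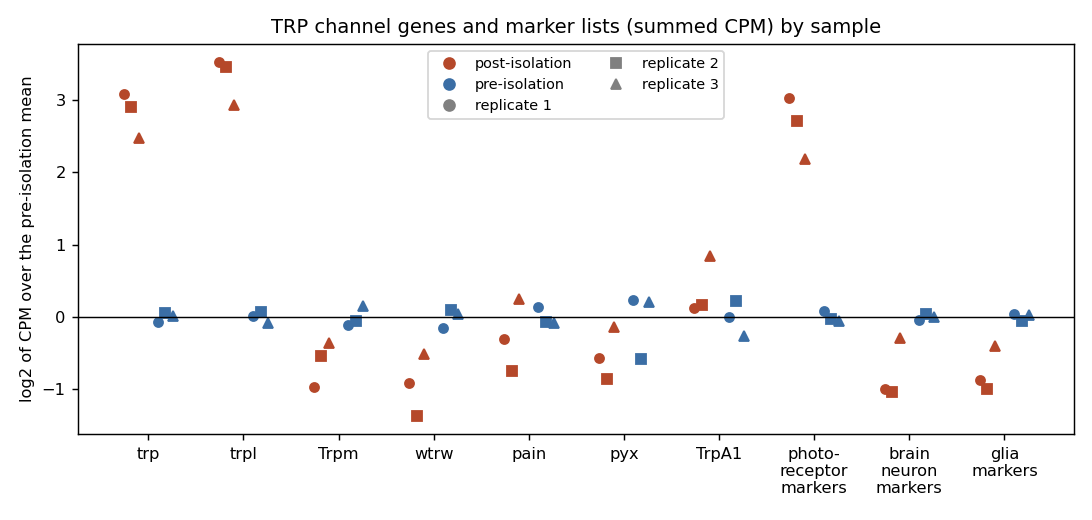
Log2 of the CPM in each sample over the pre-isolation mean, for TRP genes and for the summed CPM of the photoreceptor, brain neuron and glia marker lists, with post-isolation samples on the left of each pair. Post-isolation replicate 3 (triangles) is the lowest post-isolation sample for *trp*, *trpl* and the photoreceptor markers and the highest for the other 5 genes and both other lists.

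Other cells of the head were followed by further marker lists. The 5 markers of chordotonal neurons, the cells of the hearing organ in which *nan*, *iav* and *nompC* are known to act, summed to between 58.3 and 65.2 CPM after isolation, against 34.0 to 40.9 CPM before. None of the 4 tested was post-enriched, where 7.29% of all tested genes were. In edgeR's F test against no change 3 (*nompA*, *btv* and *rempA*) were higher, where 24.4% of all tested genes were. *tilB*, with 3 to 8 counts after isolation and 4 to 7 before, was not tested. The olfactory markers *Orco*, *Ir25a* and *Ir8a* summed to 7.91, 4.13 and 12.2 CPM in post-isolation replicates 1 to 3, against 0.996, 2.62 and 3.41 CPM in pre-isolation replicates 1 to 3. Every post-isolation sum was the higher. *Ir25a*, the 1 tested, was not post-enriched at 1.84 (SE 0.53) and was higher in the F test against no change (FDR = 0.00995), and *Ir8a* had no counts before isolation. The 3 fat body markers (*apolpp*, *to* and *Lsp2*) had a median log2 fold change of -1.35. None was post-reduced by edgeR's glmTreat, where 4.89% of all tested genes were. All 3 were lower in the F test against no change, where 26.1% of all tested genes were. Of the 4 lens and pigment cell markers only *w*, which the *UAS* transgene also carries as a marker, was post-enriched. In the F test against no change 2 were higher, *w* and *Crys*, where 24.4% of all tested genes were, and none was lower. *Crys* was at 0.42 (SE 0.13). The 3 tested muscle markers went different ways. *up* was post-reduced at -1.65 (SE 0.16), *sls* was not called at 1.02 (SE 0.15) but was higher in the F test against no change (FDR = 3.9e-05), and *Mhc* was at 0.09 (SE 0.17).

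The genes of the light pathway on which the channels depend were set beside them as a list of 28 genes, of which 26 were tested. Of these, 16 were post-enriched, where 7.29% of all tested genes were. None was post-reduced by edgeR's glmTreat, where 4.89% of all tested genes were, and none at an unadjusted p below 0.05 or with DESeq2. The median log2 fold change was 1.74, against -0.07 for all tested genes. *trpl* lay above all 26 and *trp* above 25 of them, the exception being *Calx*, the sodium/calcium exchanger that removes the calcium which enters through the channels, at 3.11 (SE 0.16). The list was drawn up with earlier results of these samples known and is given as a description.

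By role, the counts of post-enriched genes stand beside 7.29% of all tested genes. Among the 7 receptor genes, the rhodopsins, 4 were post-enriched, *Rh3* at 2.53 (SE 0.21), *Rh4* at 1.81, *Rh5* at 2.05 and *Rh6* at 2.05. These 4 are the rhodopsins of the inner photoreceptors. *ninaE* of the outer ones was not called against a fold change of 2 but was higher in the F test against no change. The study also found rhodopsins of the inner photoreceptors enriched, and ascribes this to activity of the driver in the antenna. That account was not tested here. The lowest of the 7 was *Rh2*, the rhodopsin of the ocelli, at -1.13 (SE 0.14). It was called post-reduced only without post-isolation replicate 3 or with library size alone. Of the 3 G protein subunit genes, *Gbeta76C* had the highest log2 fold change, 1.68 (SE 0.16), and was post-enriched, and *Ggamma30A* the lowest, 0.81 (SE 0.16), which did not pass. Of the 7 lipid cycle genes, among them *norpA*, whose product cleaves the phosphoinositide lipid, 5 were post-enriched. The diacylglycerol kinase gene *rdgA* was highest at 2.58 (SE 0.22), and *laza*, a lipid phosphatase gene, was lowest at 0.14 (SE 0.13) and not called. The scaffold, kinase and myosin genes, of which *inaD* and *inaC* encode proteins that join TRP in one membrane complex, were all 3 post-enriched, from *inaC* at 2.06 (SE 0.18) to *ninaC* at 1.68 (SE 0.17). Of the 5 termination and calcium genes 3 were post-enriched, with *Calx* the highest and the calmodulin gene *Cam* the lowest, at -0.61 (SE 0.13), which was not called.

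**Figure D5:**
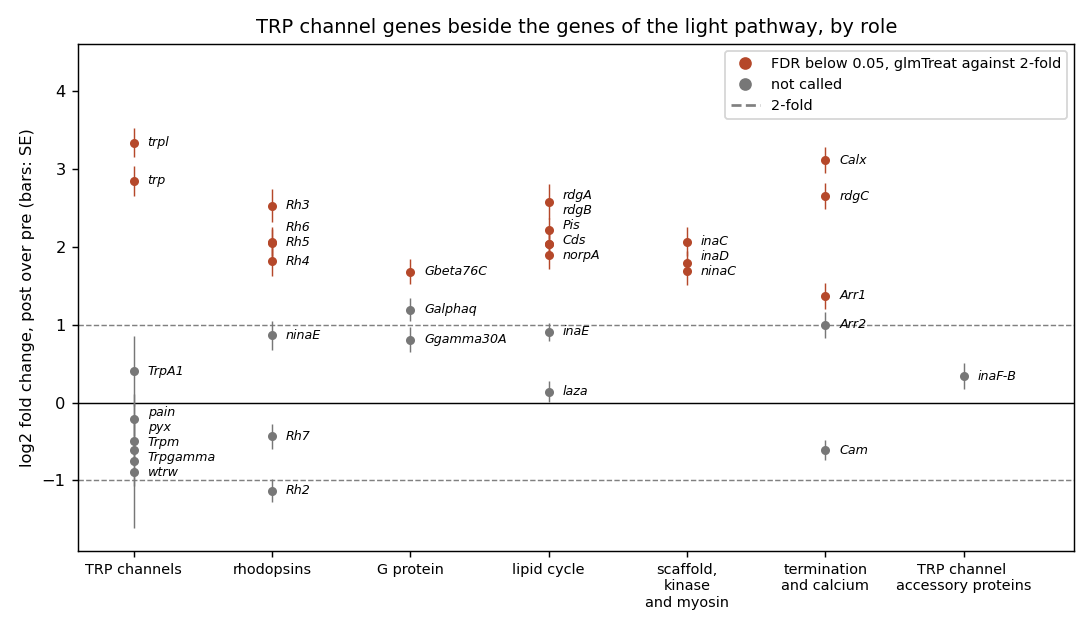
Log2 fold change of post-isolation over pre-isolation for the tested TRP channel genes and 26 tested light pathway genes by role, with SE bars and dashed lines at 2-fold. Among the TRP genes *trpl* lies above all 26 pathway genes and *trp* above all but *Calx*, and the 6 others lie between -0.89 and 0.40.

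Of the 3 listed genes for proteins that serve the TRP channel, 1 passed the filter on low counts. *inaF-B*, whose product is needed for TRP channel function, had 1803, 1475 and 1108 counts in post-isolation replicates 1 to 3, against 1518, 1352 and 1003 in pre-isolation replicates 1 to 3, a log2 fold change of 0.34 (SE 0.16) that was not called. The groups overlapped. Of its 3113 exonic bases, 2697 are shared on the same strand with neighbouring *inaF* genes, and reads that fall in shared bases are not assigned to any gene by the default counting. Chosen after their values were seen, the neighbours *inaF-C* with 534, 604 and 230 counts after isolation, against 50, 99 and 47 before, and *inaF-D* with 241, 225 and 136 after, against 19, 31 and 12 before, were both post-enriched, at log2 fold changes of 2.96 (SE 0.36) and 3.43 (SE 0.38). *inaF-A*, likewise chosen, had 31, 25 and 31 counts after isolation, against 62, 102 and 105 before. It was not called by glmTreat at -1.47 (SE 0.40) and was lower in the F test against no change (FDR = 0.0065). The gene for the TRP chaperone Xport-A is listed at 0 in all samples, and all of its 949 exonic bases lie within *Xport-B* on the same strand. *Xport-B*, the gene of a second chaperone, had 7, 4 and 6 counts after isolation and none before.

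Genes that overlap the members on the genome were looked up, since counting by strand separates them only where the strand is kept. *trp*, *Trpgamma*, *Trpml* and *nan* had no overlapping gene in the count table. Within *trpl* lies *CG1690* (FBgn0033442), on the opposite strand from 9756293 to 9758068 with no exonic base in common. It had 3144, 3220 and 1471 counts in post-isolation replicates 1 to 3, against 149, 117 and 122 in pre-isolation replicates 1 to 3, and was post-enriched, at 4.49 on the log2 scale (SE 0.27, glmTreat FDR = 1.6e-07), against 3.33 for *trpl* itself. Whether these reads are its own or come from the *trpl* locus was not tested. *pain* shares 173 exonic bases with the sodium channel gene *NaCP60E* on the opposite strand. *NaCP60E* was not called by glmTreat at -0.78 (SE 0.16) and was lower in the F test against no change (FDR = 0.00099). *pyx* shares 477 exonic bases with *CG13877* and 127 with *Kaz1-ORFB*, both on the opposite strand. Neither was called by glmTreat, at -1.82 (SE 0.49) and -1.67 (SE 0.37), and both were lower in the F test against no change (FDR = 0.0063 for *CG13877* and 0.0016 for *Kaz1-ORFB*). *Trpm* shares 66 exonic bases with *ItgaPS4* on the opposite strand, which had 5, 11 and 16 counts after isolation, against 5, 9 and 7 before. The genes *ND-51L2* and *lncRNA:CR44241* lie within *Trpm* on its own strand and share no exonic base with it, and *wtrw* shares none with *mRpS9*, the gene in which it lies.

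The genes whose profile over the 6 samples was most like that of the light-activated channels were found by the root mean square difference of log2(CPM + 0.5), each gene centred on its own mean, over the other 10377 tested genes. For *trp* these were *Kul* at 0.0520, *CG44102* at 0.0738, *fipi* at 0.0783, *fry* at 0.0810 and *nord* at 0.0947. *Kul*, which encodes a metalloprotease related to Kuzbanian, had 2385 ± 471 CPM after isolation and 356 ± 12.5 before (SD, n = 3 each). *CG44102* had no counts before isolation, so its likeness rests on the added 0.5. For *trpl* the nearest were *CarT* at 0.0516, *asRNA:CR45131* at 0.0694, *ClC-a* at 0.0808, *asRNA:CR43480* at 0.1002 and *app* at 0.115. *CarT*, which encodes a carcinine transporter of photoreceptors, had 345 ± 75.3 CPM after isolation and 32.0 ± 1.33 before. *trpl* was not among the nearest to *trp*, at rank 87 with a difference of 0.253, and *trp* was at rank 32 for *trpl*. These differences describe 6 samples in 2 groups, and most of each profile is the step between the groups.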

How the data were processed

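RNA-seq of 3 post-isolation and 3 pre-isolation samples was used. The authors trimmed the reads with Trimmomatic, mapped them to BDGP6 with TopHat and Bowtie 2, and deposited strand-specific HTSeq counts per gene without normalization. A second deposited table has the same counts for 5262 genes that the authors kept, and holds 5 of the 10 TRP genes. The authors' CPM table is relative to the summed counts of those genes. Between 93.4% and 95.6% of alignments per sample are in the counter's summary rows, mostly reads mapping to more than 1 place, and were left out.

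Genes above a CPM of 1 (over gene counts) in 3 or more samples were tested with edgeR 4.0.16 (TMM, estimateDisp, glmQLFit without the legacy option, glmTreat against a fold change of 2) in R 4.3.3, with Benjamini-Hochberg adjustment over all tested genes. SEs and 95% intervals were derived from the quasi-likelihood F statistic. No replicate block was used, as the study's methods name none. The labels call the same-numbered samples paired biological replicates. Their deviations from the group means correlated at 0.013, 0.050 and -0.0071 over genes. The alternatives were RLE factors, library size alone, DESeq2 1.42.0, the F test against no change, other filters, the authors' filtered table, the replicate block and leaving out each sample. The procedure was also run on simulated counts with 200 changed genes. These are fewer than were called in the data, so that run cannot show how the TMM scaling performs here. Symbols, positions and exon lengths came from Ensembl release 115, on BDGP6 too but later than the authors' annotation. The members, gene lists and tests were chosen with earlier results of these data known. All 10 members and the other TRP genes are named, with the highest and lowest log2 fold change in each role of the light pathway and the 5 genes most like *trp* and *trpl*. Of the marker genes, *VAChT* and *wupA* were not matched to the count table. Genes shown beyond this rule are named as chosen after their values were seen or as overlapping a member. No sequence is shown and the planned search of promoter motifs was not run. The reads carry no molecular identifiers, so limits from counts cover counting error only.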

Additional observations from a re-analysis of the deposited data

How the results depend on the processing

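*trp* and *trpl* were the 2 post-enriched members under all 14 alternatives, with log2 fold changes from 2.38 to 3.04 for *trp* and from 2.87 to 3.54 for *trpl*, the lowest with library size alone. With the replicate block they were 2.82 and 3.31, and the block changed no call of a TRP gene. No member was post-reduced under the alternatives that tested against 2-fold. The F test against no change found 2 lower, *wtrw* at -0.89 and *Trpm* at -0.60. Leaving out each sample gave -1.08 to -0.70 for *wtrw* and -0.70 to -0.45 for *Trpm*. With library size alone *wtrw* was at -1.32 and *Trpm* at -1.04, both past a fall of 2-fold, though neither was called post-reduced. *TrpA1* reversed to -0.042 with library size alone, which moved the median of all tested genes to -0.51. Against no change, *pain* at -0.65 and *pyx* at -0.93 passed with library size alone, and *pain* at -0.46 also without post-isolation replicate 3. Leaving out each sample gave 0.44 to 0.53 for the log2 ratio of *trpl* to *trp*, 1.89 to 2.08 for *trp* to *ninaE* and 2.37 to 2.58 for *trpl* to *ninaE*. Over all genes, post-enriched and post-reduced counts were 451 and 1253 with library size alone, while the F test against no change found 2535 genes higher and 2707 lower. DESeq2 called 278 post-reduced genes, and 480 genes were post-enriched among those the authors kept, a set of fewer genes. Leaving out each sample gave between 601 and 1010 post-enriched and between 358 and 740 post-reduced genes. Of the light pathway genes, 1 (*Rh2*) was post-reduced with library size alone and 3 (*Rh2*, *Rh7* and *Cam*) were lower in the F test against no change, and leaving out each sample gave 0 to 1, the 1 being *Rh2* without post-isolation replicate 3. Leaving out each sample gave -1.61 to -0.14 for *Trpgamma*. *Trpgamma* and *nan* are limited by their counts.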
